A study of Mus musculus with 33 samples.

Results

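The genes of cholesterol supply are described here in enteric neural crest cells (ENCCs), the migrating cells that build the nervous system of the gut, with and without GDNF, and in the whole embryonic gut. They were taken from a list of 32 genes. It holds the enzymes that synthesise cholesterol, the proteins that control the SREBP transcription factors, and the proteins that carry, store or export sterol. This list and the further lists below were chosen with earlier results of these data known. Their counts are thus set beside those of all genes as description only. A gene was measured where a probe set carried its symbol and no other, and its score was the mean of those probe sets. Of the 32 genes, 29 were measured among 18193 genes in all, and these were 17 enzymes, 5 genes of SREBP control and 7 of sterol transport and LXR control. Acat2, Soat1 and Nr1h2 had no such probe set. The 29 genes rest on 62 probe sets, with 1 probe set for 11 genes and several for 18.

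Cholesterol is made from acetate through mevalonate, isoprenoids, squalene and lanosterol, in a chain of enzymes of the endoplasmic reticulum and cytosol. When that membrane is poor in sterol, Scap escorts the SREBP precursors to the Golgi, where they are cut, and the released factors turn on the enzymes. When sterol is plentiful, the Insig proteins hold Scap back and the LXR receptors turn on genes of sterol export. Growing neurites need membrane and so sterol, and Schwann cells, a derivative of the neural crest, are known for high sterol synthesis when they myelinate.

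The ENCCs came from guts of transgenic C57BL/6 embryos at embryonic day 14.5 that carried Wnt1-Cre and a LoxP/R26-YFP reporter, in which cells of neural crest descent are labelled by YFP. They were sorted by fluorescence and kept on fibronectin in medium with FGF, EGF and the N2 and B27 supplements, so both ENCC groups had these factors. Each of 9 guts filled a pair of wells, of which 1 received 50 ng/ml GDNF, the ligand of the RET receptor complex, and the other did not. The 18 ENCC RNAs were read on 25 arrays, 12 untreated and 13 treated, and 7 of them were read in both hybridisation batches that the titles name. The other group was 8 whole guts, from duodenum to anus, of wild-type embryos, also at embryonic day 14.5, 1 array each and all in batch 2. Sorted and cultured cells thus stand against uncultured whole tissue of another genotype, and culture, sorting and cell type cannot be told apart in that comparison. No source used here gives the time in culture.

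Every deposited value was a score, made by ranking an array onto a normal curve, with earlier scaling of each probe set on the ENCC arrays of its batch that was read from the values. A difference of 1 was thus about 1 SD of a probe set among ENCC arrays. It is no fold change, large differences are compressed, and scores of different genes do not rank their levels. Sequencing depth does not apply, and the number of arrays limits the precision. All 11 epithelial markers were lower in both ENCC groups than in whole gut, and the 5 measured ENCC markers were all higher in untreated ENCCs, while 4 of the 5 were in treated ENCCs (not Ednrb, at -0.56). Of 8 mesenchyme markers 4 were lower in untreated ENCCs, where 22.8% of all genes were. Col1a1 was higher (0.47, limma adjusted p = 0.0475), and Pdgfrb (0.15), Col3a1 (0.01) and Osr1 (-0.64) were not called. In treated ENCCs 7 of the 8 were lower, where 26.0% of all genes were. Whether untreated wells held mesenchymal RNA was not tested. Over the 7 RNAs read in both batches, scores correlated between batches at 0.117 to 0.325. The batch 2 array of untreated gut 3 correlated better with an array of gut 4 than with its own batch 1 array (0.159 against 0.117). Leaving that array out kept the counts with GDNF at 22 higher, where 18.5% of all genes were, and 1 lower, where 13.9% were.

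The first comparison asked how the sterol genes of ENCCs respond to GDNF. The enzymes of cholesterol synthesis rose together, with 1 exception. Of the 29 genes, 22 were higher in treated than in untreated wells by limma at an adjusted p under 0.05, where 18.3% of all genes were, 1 gene (Npc1) was lower, where 13.2% were, and 6 were not called. The enzymes gave 16 of the 22, with a median difference of 1.52 score units. The median over all 29 genes was 1.40, against 0.01 over all genes measured. In every one of the 9 guts 19 of the 29 genes were higher with GDNF, where 11.7% of all genes were, and 1 was lower in every gut, where 6.14% were. For 10 genes each treated RNA lay above each untreated RNA, where 4.69% of all genes did. These were Hmgcs1, Mvk, Pmvk, Mvd, Sqle, Lss, Cyp51, Dhcr7, Insig1 and Stard4.

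**Figure D1:**
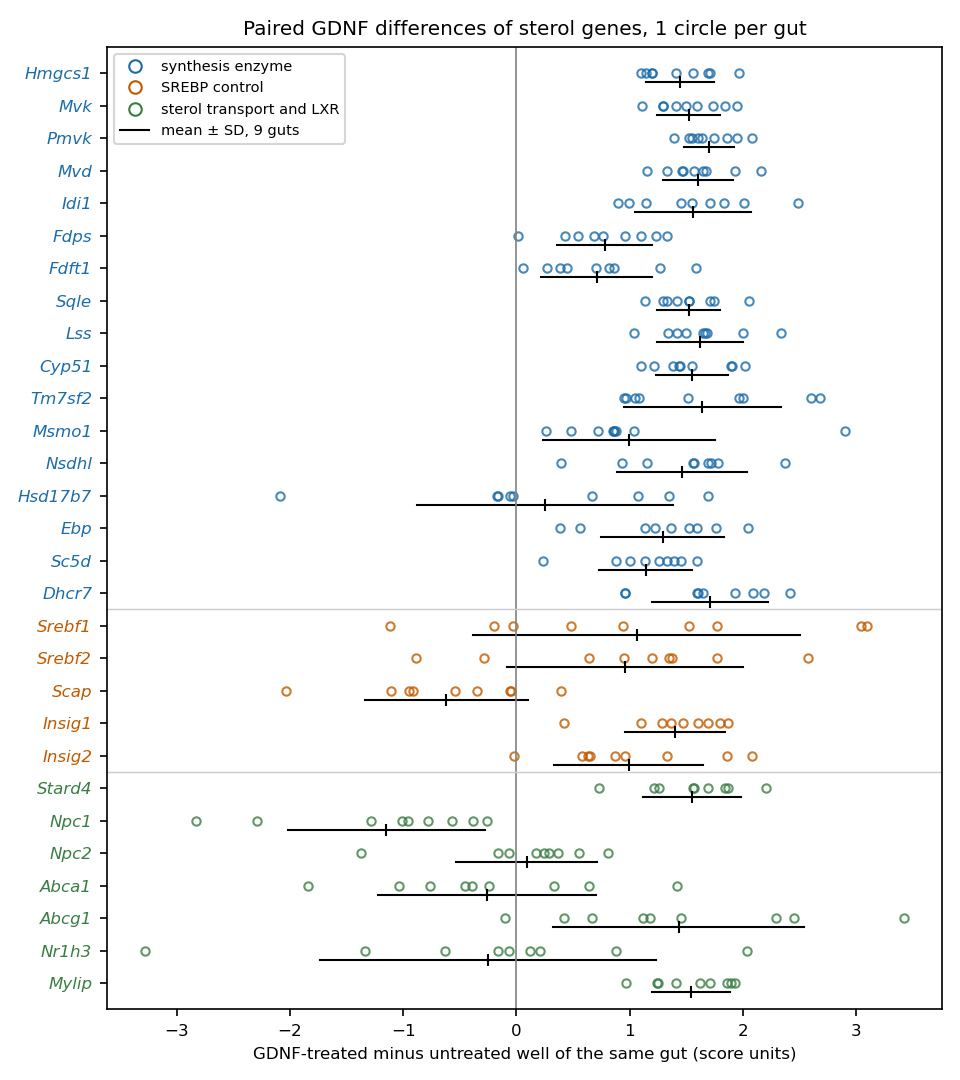
Each circle is the score of the treated well minus that of the untreated well of 1 gut (horizontal axis, score units), for 29 genes in pathway order, with the mean and SD over 9 guts as a black bar. The circles of 16 enzymes lie to the right of 0 in all 9 guts, those of Npc1 lie to the left, and Srebf1, Hsd17b7 and Nr1h3 spread to both sides.

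Other gene groups moved in the same wells, and their counts stand against 18.3% of all genes higher and 13.2% lower. Of 12 neuron markers 10 were higher with GDNF and 0 lower, and their mean difference was 1.04 to 1.68 over the 9 guts. Of 8 mesenchyme markers 4 were lower and 0 higher, with a mean of -1.87 to -0.26, and of 6 measured ribosomal protein genes 5 were lower, with a mean of -1.88 to -0.22. The mean over these 12 neuron markers was -1.47 to -0.45 in untreated and 0.00 to 0.72 in treated RNAs. Macrophage markers (0 higher and 2 lower of 10), glial markers (2 higher of 5) and epithelial markers (0 of 11) gave fewer calls. The hybridisation control probe sets differed by -0.72 ± 0.99 (SD, n = 9 guts) and were lower in 6 of 9 guts. The part of these groups in the sterol results was not tested, and in these bulk RNAs fewer cells of a type and less RNA per cell cannot be told apart.

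The first steps run from Hmgcs1 to mevalonate and its phosphates. Hmgcs1, the cytosolic HMG-CoA synthase, scored -1.46, -0.99 and -0.32 in untreated wells (lowest, median and highest of 9) and -0.27, 0.28 and 1.53 in treated wells. The treated wells thus began just above the highest untreated well. The paired difference was 1.44 ± 0.30 (SD, n = 9 guts; limma adjusted p = 1.2e-04), and its 5 probe sets gave 1.30 to 1.57. Mvk, mevalonate kinase, scored -1.40, -1.03 and -0.39 untreated and -0.03, 0.73 and 1.00 treated, without overlap. It rose by 1.52 ± 0.28 (adjusted p = 8.5e-05). Pmvk, phosphomevalonate kinase, scored -1.61, -1.15 and -0.26 untreated and 0.18, 0.69 and 1.29 treated. All treated wells of Pmvk had positive scores and all untreated wells negative ones. Its rise of 1.70 ± 0.22 (adjusted p = 6.5e-05) had the smallest SD over guts of the 29 genes. Mvd, the decarboxylase that closes the mevalonate steps, scored -1.35, -0.83 and -0.54 untreated and 0.11, 0.78 and 1.10 treated. Its difference was 1.60 ± 0.31 (adjusted p = 7.7e-05), and treatment held 89.4% of the variance among its 18 RNAs, the highest share of the 29 genes.

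Idi1, Fdps and Fdft1 carry the isoprenoid steps to squalene. Idi1, which isomerises isopentenyl diphosphate, scored -1.85, -1.24 and -0.13 untreated and -0.25, 0.65 and 1.58 treated, so that the groups overlapped. Within guts it rose in 9 of 9, by 1.56 ± 0.51 (adjusted p = 1.6e-04). Fdps, farnesyl diphosphate synthase, scored -1.11, -0.34 and 0.58 untreated and -0.33, 0.33 and 1.01 treated, with wide overlap. It rose by 0.78 ± 0.42 (adjusted p = 0.0101), from 0.01 in gut 4 to 1.33 in gut 2. Its 2 probe sets disagreed, at 1.58 and -0.02, and correlated between batches at 0.964 and -0.622. Fdft1, squalene synthase, scored -1.09, -0.52 and 0.16 untreated and -0.40, 0.17 and 0.93 treated, also overlapping. It rose by 0.71 ± 0.49 (adjusted p = 0.0209), while its 4 probe sets ran from -0.27 to 1.58. With the probe set that agreed best between batches, Fdps and Fdft1 both rose by 1.58 and Idi1 by 1.55, so the smaller means of Fdps and Fdft1 rest on their other probe sets. With the mean of probe sets, the call of Fdft1 ended in batch 1 alone (adjusted p = 0.0699), without gut 9 (0.0503) and when the hybridisation controls entered as a covariate (0.131).

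From squalene to lanosterol the groups separated again. Sqle, squalene epoxidase, scored -1.43, -0.91 and -0.54 untreated and -0.10, 0.67 and 1.20 treated. Lss, lanosterol synthase, scored from -1.44 to -0.71 untreated and -0.25, 0.61 and 1.18 treated. Neither gene had a treated well as low as its highest untreated well. Sqle rose by 1.52 ± 0.28 (adjusted p = 8.5e-05) and Lss by 1.62 ± 0.38 (adjusted p = 8.0e-05), and the 3 probe sets of Lss gave 1.51 to 1.70. Cyp51, the lanosterol demethylase, scored -1.69, -0.92 and -0.28 untreated and -0.13, 0.82 and 1.03 treated, without overlap. It rose by 1.55 ± 0.32 (adjusted p = 8.9e-05).

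The later steps trim lanosterol to cholesterol. Tm7sf2, a sterol reductase, rose by 1.64 ± 0.69 (adjusted p = 2.7e-04), and its difference was 2.00 to 2.68 in guts 2, 3 and 4 and 0.95 to 1.08 in guts 6 to 9. Msmo1, the sterol methyl oxidase, rose by 0.99 ± 0.76 (adjusted p = 0.0101), with 2.90 in gut 5 and 0.26 to 1.04 in the others. Its 2 probe sets gave 0.36 and 1.61. Nsdhl, the dehydrogenase that acts after Msmo1, rose by 1.46 ± 0.57 (adjusted p = 3.3e-04), from 0.39 in gut 1 to 2.37 in gut 3. Each of these genes was higher in 9 of 9 guts, with treated and untreated scores that overlapped. Ebp, the sterol isomerase, scored -1.55, -0.82 and -0.06 untreated and -0.87, 0.52 and 1.56 treated, and the widest spread lay among its treated wells. It rose by 1.29 ± 0.54 within guts (adjusted p = 6.7e-04). Sc5d, a sterol desaturase, rose by 1.14 ± 0.41 (adjusted p = 8.4e-04). Dhcr7, the reductase of the last step, scored -1.73, -1.01 and -0.51 untreated and -0.14, 0.92 and 1.35 treated. Its 2 groups did not overlap, and its rise of 1.71 ± 0.51 (adjusted p = 9.7e-05) was the largest mean of the 29 genes in score units.

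Hsd17b7, the keto reductase of the demethylation steps, was the 1 measured enzyme without a call. It scored -2.27, -0.29 and 1.29 untreated and -1.67, 0.23 and 1.74 treated, so that the groups covered nearly the same range. The difference was 0.25 ± 1.13 (adjusted p = 0.618), positive in 4 guts and negative in 5, and 3 of its 4 probe sets were higher and 1 lower. The SD over guts ran from 0.22 to 1.13 among the enzymes, with a median of 0.42, against a median of 0.84 over all genes. Since probe sets were scaled on the ENCC arrays, a large treatment difference leaves less room for spread over guts. The small SD is thus tied to the size of the difference and is no separate result. The median difference of the enzymes in a gut was lowest in gut 4 (1.11) and highest in gut 3 (1.95), while the median over all genes in a gut was 0.00 to 0.18. Of the 38 enzyme probe sets, 35 were higher with GDNF.

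Promoter sequences were set beside these results, since sterol regulated genes are known for SREBP sites with nearby sites of the factor NF-Y. Of the 29 genes, 23 had an entry in the RefSeq promoter table (GRCm38.p6), with 32 starts. Fdps, Fdft1, Sqle, Stard4, Npc1 and Abcg1 had none. For 6 genes the 250 bases before 1 start, the one listed farthest upstream, are printed 5' to 3'. These genes were chosen after their values were seen: 5 that rose together with GDNF and Nr1h3, which was not called. Capitals mark the sterol regulatory element TCACCCCAC and the NF-Y motif CCAAT, which reads ATTGG on the opposite strand.
Hmgcs1, chr13:119690101-119690350, plus strand: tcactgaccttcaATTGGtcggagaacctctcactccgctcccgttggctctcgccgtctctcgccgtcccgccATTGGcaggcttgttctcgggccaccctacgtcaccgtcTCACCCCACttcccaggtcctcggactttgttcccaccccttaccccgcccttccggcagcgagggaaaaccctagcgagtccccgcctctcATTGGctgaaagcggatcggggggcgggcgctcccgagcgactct
Mvk, chr5:114444019-114444268, plus strand: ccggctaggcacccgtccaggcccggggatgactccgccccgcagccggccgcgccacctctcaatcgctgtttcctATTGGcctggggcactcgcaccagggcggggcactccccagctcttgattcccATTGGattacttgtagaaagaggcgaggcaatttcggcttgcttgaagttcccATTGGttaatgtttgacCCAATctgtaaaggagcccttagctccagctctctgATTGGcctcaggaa
Lss, chr10:76531355-76531604, plus strand: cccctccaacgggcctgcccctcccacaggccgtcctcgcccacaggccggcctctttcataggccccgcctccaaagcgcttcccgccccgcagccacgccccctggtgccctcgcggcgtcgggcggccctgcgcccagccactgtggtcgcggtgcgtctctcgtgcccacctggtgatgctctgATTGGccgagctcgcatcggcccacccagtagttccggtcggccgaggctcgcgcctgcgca
Insig1, chr5:28071162-28071411, plus strand: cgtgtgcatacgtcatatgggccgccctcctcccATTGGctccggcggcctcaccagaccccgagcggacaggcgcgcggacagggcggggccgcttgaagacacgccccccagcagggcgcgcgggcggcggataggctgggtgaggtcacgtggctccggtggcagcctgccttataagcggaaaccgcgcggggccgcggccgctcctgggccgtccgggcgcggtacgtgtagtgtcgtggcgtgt
Mylip, chr13:45389492-45389741, plus strand: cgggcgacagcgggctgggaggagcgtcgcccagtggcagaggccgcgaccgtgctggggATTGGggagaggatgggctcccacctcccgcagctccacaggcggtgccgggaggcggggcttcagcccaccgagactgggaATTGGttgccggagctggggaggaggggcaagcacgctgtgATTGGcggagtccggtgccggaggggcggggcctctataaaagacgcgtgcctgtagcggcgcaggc
Nr1h3, chr2:91195117-91195366, minus strand: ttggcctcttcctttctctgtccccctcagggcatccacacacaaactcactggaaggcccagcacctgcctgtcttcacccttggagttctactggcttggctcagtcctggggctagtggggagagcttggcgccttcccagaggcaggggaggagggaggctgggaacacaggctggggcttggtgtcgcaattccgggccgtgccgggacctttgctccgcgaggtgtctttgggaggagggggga
Hmgcs1 held the sterol element on its own strand, starting 137 bases before the start, and 3 CCAAT motifs. Mvk held 5 CCAAT motifs, Mylip held 3, Lss and Insig1 held 1 each, and Nr1h3 held 0.

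The motif search covered the 250 bases before every start and gave the following shares, both strands included. TCACCCCAC stood in 1 of the 32 starts of these genes, that of Hmgcs1, and in 0.496% of all 32851 starts. Its looser form TCACNCCAC, which contains the first, also stood in that start alone, against 1.05% of all starts. CCAAT stood in 21 of the 32 starts (65.6%) against 33.8% of all, in 14 of 17 enzyme starts and in 7 of 15 starts of the other genes. The SP1 motif GGGCGG stood in 24 of 32 (75.0%) against 32.7%. The E-box CACGTG stood in 6 (Abca1, Dhcr7, Hsd17b7, Insig1, Sc5d and Scap), 18.8% against 6.02%. Hsd17b7, Srebf1 and Npc2, which were not called, held CCAAT too. The 32 starts belong to 23 genes, so a site can count for more than 1 start of a gene. Counted by gene, 20 of the 23 held CCAAT, and no share by gene was taken over all genes. The starts were not matched for base composition. A match is a run of letters and no evidence of binding, and a window without one says nothing on the factor.

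Among the genes of SREBP control, both Insig genes rose, and Srebf2 passed the main test and lost the call under several alternatives. Insig1, which retains Scap in the endoplasmic reticulum and is itself an SREBP target, scored -1.67, -0.71 and -0.01 untreated and 0.20, 0.39 and 1.50 treated. All treated wells were positive and all untreated wells negative. It rose by 1.40 ± 0.44 (adjusted p = 2.6e-04), least in gut 4 (0.42). Insig2, its relative, scored -1.49, -0.38 and 0.19 untreated and -0.63, 0.57 and 1.21 treated, with overlap. It rose by 0.99 ± 0.66 (adjusted p = 0.00659) and was higher in 8 of 9 guts.

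The transcription factors and Scap, which escorts them, had groups that overlapped. Srebf2, which encodes the SREBP of cholesterol genes, scored -2.08, -0.22 and 0.96 untreated and -0.57, 0.49 and 1.29 treated. Both groups spanned 0, and the difference was 0.96 ± 1.04 (adjusted p = 0.0321), positive in 7 guts and negative in guts 6 and 9. The call ended in 6 of the 9 fits that left out a gut, those without gut 1, 2, 3, 4, 7 or 8, at adjusted p of 0.0537 to 0.0777. It also ended without the pairing (0.0792), in batch 1 alone (0.180), with 1 probe set (0.107) and with the control covariate (0.107). Srebf1, which encodes the SREBPs of lipid genes, scored -1.29, -0.56 and 1.65 untreated and -2.12, 0.62 and 3.17 treated, the widest treated range of the 29 genes. The difference of 1.06 ± 1.44 (adjusted p = 0.0616) was above 3 in guts 7 and 8 and was -1.12 in gut 4. It was called without gut 4 (1.33, adjusted p = 0.0196), without gut 5 (1.21, adjusted p = 0.0481) and with the hybridisation controls in the fit (1.60, adjusted p = 0.0238). Scap scored -0.64, 0.52 and 0.68 untreated and -1.35, -0.30 and 0.56 treated. It differed by -0.62 ± 0.72 (adjusted p = 0.0779), negative in 8 of 9 guts, and its 2 probe sets gave -1.35 and 0.10. Scap was called lower without gut 1 (-0.75, adjusted p = 0.0371) and with the probe set that agreed better between batches (-1.35, adjusted p = 0.00321).

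Of the 7 genes of sterol transport and LXR control, 3 rose and 1 fell. Stard4, a carrier of sterol through the cytosol, scored -1.88, -1.13 and 0.06 untreated and 0.16, 0.42 and 1.46 treated, without overlap. It rose by 1.55 ± 0.43 (adjusted p = 1.3e-04). Mylip, a ubiquitin ligase that degrades lipoprotein receptors and an LXR target, scored -1.40, -0.67 and 0.30 untreated and 0.13, 1.14 and 1.47 treated. In 8 of the 9 treated wells Mylip lay above every untreated well, and it rose by 1.54 ± 0.34 (adjusted p = 9.5e-05). Abcg1, an exporter of sterol and another LXR target, scored -1.26, -0.65 and 0.29 untreated and -0.02, 0.44 and 2.43 treated. Its difference of 1.43 ± 1.11 (adjusted p = 0.00445) ran from -0.10 in gut 6 to 3.42 in gut 1. The call of Abcg1 ended when the hybridisation controls were a covariate (0.92, adjusted p = 0.0799).

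Npc1, which moves cholesterol out of the lysosome, was the 1 gene called lower. It scored -0.34, 0.79 and 1.97 untreated and -1.08, -0.73 and 0.61 treated, and the groups overlapped. Npc1 fell in 9 of 9 guts, by 1.15 ± 0.87 on average (difference -1.15, adjusted p = 0.00647), most in gut 9 (-2.83) and gut 2 (-2.29). With that covariate it was at -0.77 (adjusted p = 0.100), which ended the call. Npc2, its soluble partner in the lysosome, differed by 0.09 ± 0.62 (adjusted p = 0.805), with 2 probe sets higher and 2 lower. Abca1, the exporter to lipid-poor apolipoproteins, differed by -0.26 ± 0.96 (adjusted p = 0.565), and both its wells of gut 1 stood above all others, at 2.31 untreated and 2.94 treated. Nr1h3, the LXR alpha receptor, differed by -0.25 ± 1.48 (adjusted p = 0.696), from -3.28 in gut 2 to 2.03 in gut 5.

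The hybridisation batches gave score differences of similar size for most genes. Each probe set was scaled on the ENCC arrays of its batch, as read from the values. Well separated groups thus give similar score differences in either batch, whatever the fold change. The likeness does not show that the size of an effect repeats. In batch 1 alone, with 8 guts, 20 of the 29 genes were called higher, where 17.0% of all genes were, and 1 lower, where 12.2% were. In guts 2, 3, 8 and 9, which make up batch 2, 0 of the 29 genes passed by limma, with adjusted p from 0.111 to 0.749. In that fit 0 of all 18193 genes passed, so this count does not set the 29 genes apart. At an unadjusted p under 0.05, 18 were higher, where 12.0% of all genes were. By the same measure 1 was lower, where 1338 of the 18193 genes were. Cyp51 gave 1.46 in batch 1 and 1.90 in batch 2, Hmgcs1 gave 1.36 and 1.66, and Npc1 gave -1.12 and -1.40. Abca1 (-0.44 and 0.35), Npc2 (-0.11 and 0.66) and Nr1h3 (0.19 and -0.87), none of them called, had opposite signs. The batches share 3 guts and are no independent repeats.

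**Figure D2:**
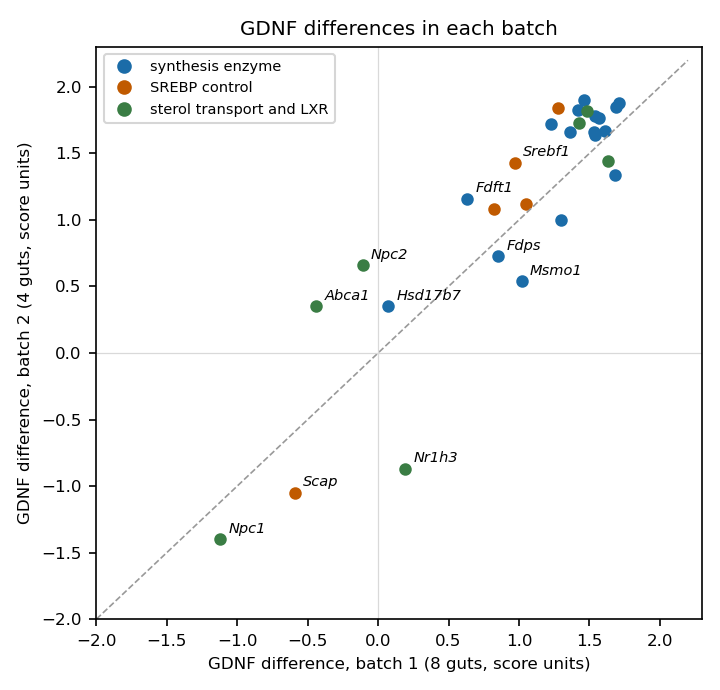
Mean GDNF difference of each of 29 genes in batch 1 (horizontal axis, 8 guts) and batch 2 (vertical axis, 4 guts), in score units, with equality as a dashed line and 3 guts in both batches. Of 17 enzymes, 12 lie between 1.23 and 1.90 on both axes, and Abca1, Npc2 and Nr1h3 change sign.

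Neighbouring lipid pathways were read from further lists of 53 measured genes, of which 22 rose and 7 fell with GDNF, where 18.3% and 13.2% of all genes did. The fatty acid genes, targets of the SREBPs of lipid synthesis, rose in 11 of 12 and fell in 0, with a median of 1.21. Elovl5, a fatty acid elongase, rose by 1.62 ± 0.36, Fads2, a desaturase, by 1.57 ± 0.85, and Acsl3, which activates fatty acids, by 1.43 ± 0.39. Acaca, acetyl-CoA carboxylase, was the 1 without a call, at 0.52 ± 0.52 (adjusted p = 0.0909). The isoprenoid branch, which leaves the pathway at farnesyl diphosphate, had 2 higher of 9, a share near that of all genes. These were Coq2 of coenzyme Q synthesis (1.45 ± 0.66) and Fntb, a farnesyltransferase subunit (1.40 ± 0.79).

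In the list of SREBP processing and sterol-regulated degradation, 1 of 7 measured genes rose and 1 fell, near the shares of all genes (18.3% and 13.2%). Pgrmc1, a sterol-binding membrane protein, rose by 1.38 ± 0.50, and Mbtps1, the protease that makes the first cut in SREBPs, fell by 0.86 ± 0.57. Of 12 further genes of uptake and trafficking 5 rose and 5 fell. Scarb1, a lipoprotein receptor (1.68 ± 1.08), Gramd1a, a sterol carrier (1.67 ± 0.85), and Vldlr, a lipoprotein receptor (1.49 ± 0.62), rose most in score units. Stard3, a sterol carrier of late endosomes (-1.73 ± 1.40), Scarb2 of the lysosomal membrane (-1.55 ± 0.74) and Lipa, the lysosomal acid lipase (-1.45 ± 0.58), fell most. Lipa and Scarb2 fell in all 9 guts, as Npc1 did. Of 8 further genes of efflux and LXR control, Abca2 (1.73 ± 1.49) and Lpcat3 (1.13 ± 0.54) rose and Abcg8 (-0.93 ± 1.06) fell. Of 5 oxysterol enzymes, Cyp46a1, the cholesterol hydroxylase of neurons, rose by 1.28 ± 1.04, and 0 fell. The counts of these last 2 lists were also near the shares of all genes.

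The second comparison set untreated ENCCs of batch 2 (guts 2, 3, 8 and 9) against the 8 whole guts. For 15 of 17 enzymes no difference was called, with differences of -0.38 to 0.34. Some of these means average probe sets that went opposite ways, including those of Sc5d, Lss, Fdft1 and Cyp51. The 3 probe sets of Sc5d scored -1.46, -0.58 and 0.17 in whole gut and -0.38, -0.34 and -0.43 in untreated ENCCs. Those of Lss scored -0.52, 0.01 and -1.52 in whole gut and -0.74, -1.15 and -0.95 in untreated ENCCs. A mean near 0 thus does not place an enzyme at the level of whole gut. Leaving out 1 gut gave calls for 7 of the 15: Tm7sf2 (0.49) and Msmo1 (0.57) were called higher without gut 2, Sqle (0.39) and Sc5d (0.57) higher without gut 3, Mvk (-0.54), Fdft1 (-0.46) and Lss (-0.44) lower without gut 8, and Mvk (-0.51) lower without gut 9. Of the 29 genes 4 were higher in ENCCs, where 19.8% of all genes were, 4 were lower, where 22.8% were, and 21 were not called. The median difference was 0.05, and it was -0.02 over the 17 enzymes. For 3 genes each ENCC array lay above each whole gut, where 12.4% of all genes did, and for 3 genes below, where 15.2% did. With all 9 ENCC RNAs 7 genes were higher (24.1%, against 21.9% of all genes) and 7 lower (24.1%, with 4546 of all 18193 genes lower). Without gut 3, 7 were higher (24.1% against 24.5%), and without gut 8, 7 were lower (24.1% against 23.9%). The fit used 1 variance for both groups, while the median SD over all genes was 0.755 among the ENCC arrays and 0.154 among whole guts. A second fit gave each group a variance by weighting its arrays, with 1 ratio between the groups shared by all genes. It thus does not use the spread of a single gene in each group. With this variance for each group, 3 genes were called higher, where 9.01% of all genes were, and 2 lower, where 11.7% were.

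Npc1, Scap and Hsd17b7 kept their higher call in both fits. Npc1 scored 1.52, -0.46, 0.47 and 2.31 in the untreated wells of guts 2, 3, 8 and 9, and -1.90, -1.83 and -1.73 in whole gut (lowest, median and highest of 8). The ENCCs were all above the guts but varied widely among themselves, and the difference was 2.78 ± 0.37 (SE; adjusted p = 3.6e-05, and 1.9e-04 with a variance for each group). Scap scored 0.24, 0.64, 0.33 and 0.59, against -1.45, -1.19 and -1.10 in whole gut. These groups were far apart, by 1.68 ± 0.15 (adjusted p = 1.7e-06, and 0.00287). The 2 probe sets of Scap disagreed here too. They scored -2.33 and -0.13 in whole gut and 0.84 and 0.06 in untreated ENCCs, so the difference rests mostly on the first. Hsd17b7 scored -0.32, -0.69, 0.54 and -0.24, against -1.69, -1.53 and -1.30 in whole gut, a difference of 1.34 ± 0.20 (adjusted p = 1.1e-04, and 0.0113). Srebf1 was called higher at 0.79 ± 0.26 (adjusted p = 0.0229) with overlap, and lost the call with a variance for each group (0.246) and without gut 9 (0.47, adjusted p = 0.0640).

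Stard4 and Mylip kept their lower call in both fits. Stard4 scored -1.13, -1.10, -0.31 and -0.17 in ENCCs and 0.74, 1.02 and 1.12 in whole gut, a difference of -1.67 ± 0.20 (adjusted p = 1.6e-05, and 0.00283). Mylip scored -0.63, -0.45, -1.27 and -1.48 in ENCCs and 0.72, 0.80 and 0.89 in whole gut, a difference of -1.76 ± 0.19 (adjusted p = 7.3e-06, and 2.8e-04). In both genes every whole gut was positive and every untreated ENCC array negative. Ebp, at -1.22 ± 0.24, and Insig1, at -1.51 ± 0.27, were called lower with 1 variance, and with a variance for each group their adjusted p were 0.217 and 0.322. The SD of Insig1 was 0.51 in untreated ENCC arrays and 0.45 in whole gut, while its SE in the weighted fit was 0.95. That SE follows the ratio shared by all genes, so the lost call does not show unequal spread in Insig1. Whole gut 4 stood apart in Insig1, at -0.51 against 0.55 to 0.86 in the other 7. It lay far from the others in 6.72% of all genes, against 0.192% to 1.63% for each other whole gut. Without whole gut 4 the counts were 4 higher, where 18.4% of all genes were, and 5 lower, where 21.4% were. Npc2 was the added gene (-0.78, adjusted p = 0.0334).

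The third comparison set the GDNF-treated ENCCs of the same 4 guts against the same 8 whole guts. The shared whole guts tie it to the second comparison, and the values are given side by side with no test between them. Of the 29 genes 22 were higher in treated ENCCs, where 25.1% of all genes were, 1 was lower, where 26.0% were, and 6 were not called. Of the enzymes 16 of 17 were higher, with a median of 1.50. In 21 genes each treated array lay above each whole gut, where 17.8% of all genes did, and in 0 below, where 17.1% did. With a variance for each group 18 were higher, where 16.0% of all genes were, and 1 lower, where 15.9% were, and Idi1, Fdps, Msmo1 and Abca1 lost the call at adjusted p of 0.0820 to 0.126. Here too the ratio was shared by all genes. Msmo1 had an SD of 0.21 in treated arrays and 0.17 in whole gut, and its SE was 0.36 in the weighted fit against 0.14 with 1 variance.

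**Figure D3:**
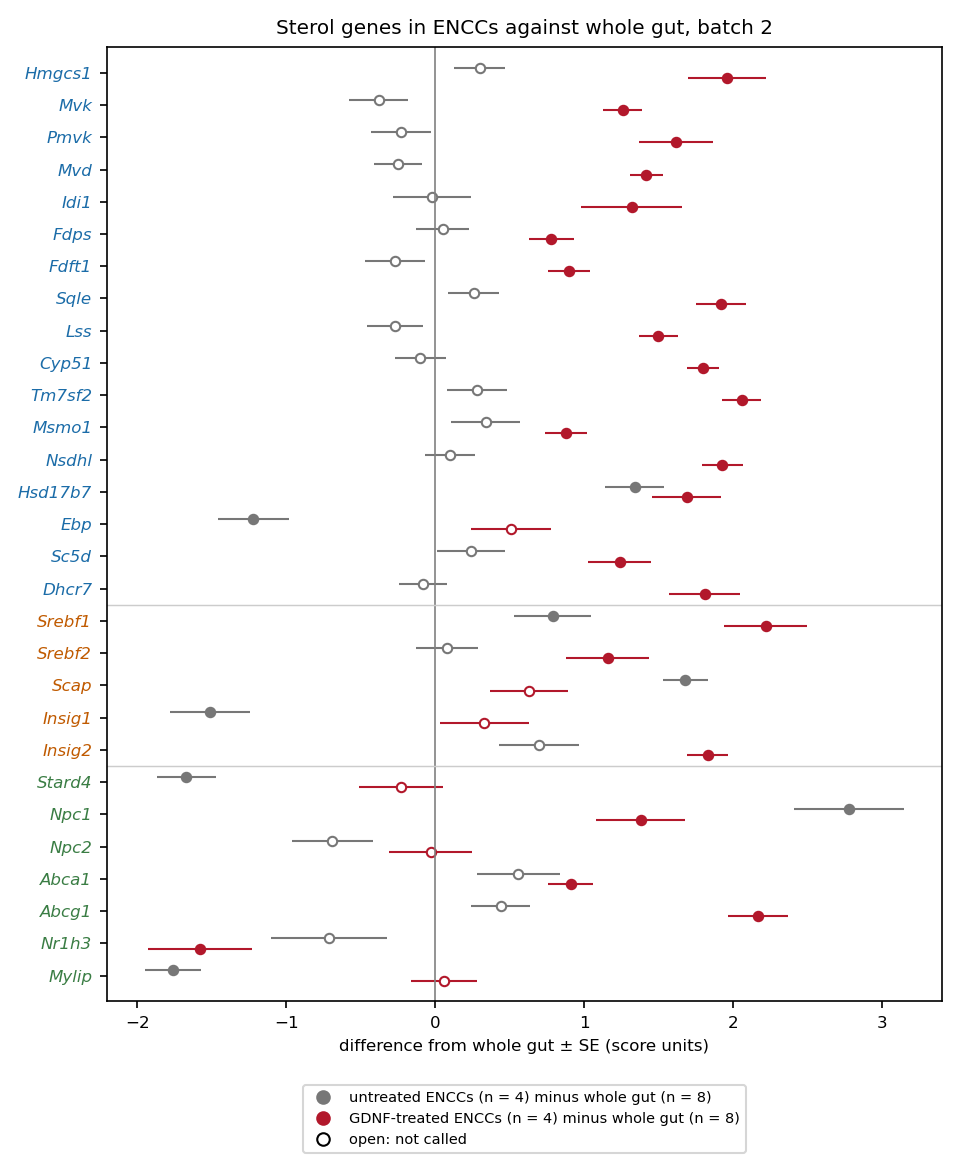
Difference from whole gut (horizontal axis, score units, bars are SE) of untreated (grey) and GDNF-treated (red) ENCCs, 4 arrays each against the same 8 whole guts, for 29 genes; filled points passed limma at an adjusted p under 0.05 with 1 variance. Grey points of most enzymes lie near 0 and red points at 0.51 to 2.06, while Stard4, Mylip and Insig1 run from below whole gut to near it.

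Among the enzymes Tm7sf2 had the largest treated difference from whole gut and Cyp51 the smallest adjusted p by limma. The smallest treated differences were those of Ebp (0.51), Fdps (0.78), Msmo1 (0.88) and Fdft1 (0.90). Tm7sf2 scored -1.52, -1.15, -0.39 and -0.55 untreated and 1.15, 1.06, 0.61 and 0.68 treated in guts 2, 3, 8 and 9, against -1.34, -1.20 and -1.04 in whole gut. Untreated wells thus spanned the level of whole gut, and treated wells lay 2.06 ± 0.13 above it (SE; adjusted p = 7.3e-08, and 4.9e-05 with a variance for each group). Cyp51 scored -1.10, -0.94, -0.47 and -1.20 untreated and 0.79, 1.13, 0.88 and 1.09 treated, against -0.94, -0.82 and -0.70 in whole gut. The treated wells lay 1.80 ± 0.11 above (adjusted p = 5.9e-08, and 4.3e-05) and the untreated wells differed by -0.10 ± 0.17 (adjusted p = 0.647). Nsdhl, at 1.93 ± 0.14, Sqle, at 1.92 ± 0.17, and Hmgcs1, at 1.96 ± 0.26, gave treated differences of like size, with untreated ones of 0.10 ± 0.17, 0.26 ± 0.17 and 0.30 ± 0.17. Ebp was the 1 enzyme not called in treated wells. Its treated wells scored -0.03, 0.59, 1.58 and 1.28 against -0.24, 0.40 and 0.63 in whole gut, with overlap and a difference of 0.51 ± 0.27 (adjusted p = 0.135). Without gut 2 Ebp was called higher, at 0.80 (adjusted p = 0.0104).

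Insig2 lay 1.83 ± 0.14 and Srebf1 2.22 ± 0.28 above whole gut when treated, and both calls held with a variance for each group (2.0e-05 and 0.00103). Abcg1 lay 2.17 ± 0.20 above (3.8e-05 with a variance for each group). Stard4, Mylip and Insig1, which scored low in untreated wells, differed from whole gut when treated by -0.23 ± 0.28, 0.06 ± 0.22 and 0.33 ± 0.30, and were not called. Without gut 8 Stard4 was called lower, at -0.59 (adjusted p = 0.0210). Npc1 stayed above whole gut, at 1.38 ± 0.30 (adjusted p = 0.00200), against 2.78 ± 0.37 untreated. Nr1h3 was the 1 gene lower, at -1.58 ± 0.35 (adjusted p = 0.00191, and 0.0128). Its treated wells scored -0.97, -1.09, -0.06 and 1.28, and its whole guts 1.15, 1.39 and 1.60, so that gut 9 overlapped them. Whole gut holds epithelium, muscle and blood cells as well. In treated ENCCs 8 of 10 macrophage markers and all 6 endothelial markers were lower than in whole gut, where 26.0% of all genes were. So were all 11 epithelial, 7 of 8 mesenchyme, 5 of 6 smooth muscle and all 3 measured erythroid markers. The part of these cell types in the Nr1h3 score was not tested.

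**Figure D4:**
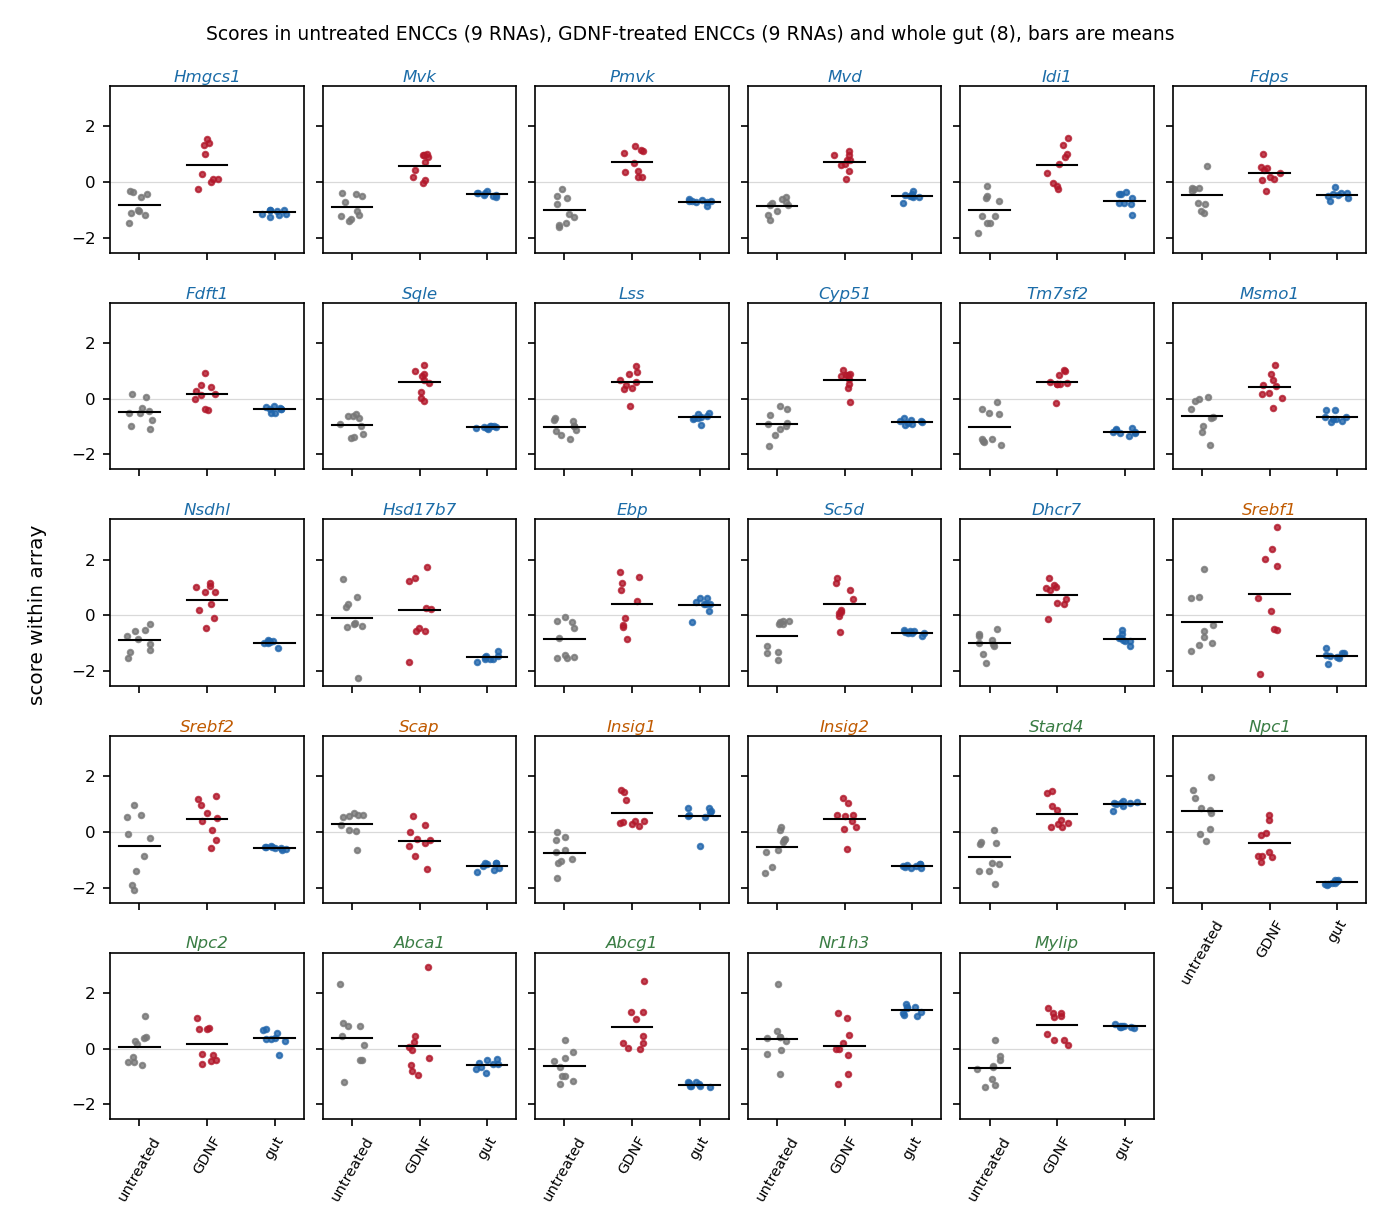
Score within the array (vertical axis) of 29 genes in untreated ENCCs (grey, 9 RNAs), GDNF-treated ENCCs (red, 9 RNAs) and whole gut (blue, 8 arrays), with means as bars; an ENCC RNA read in both batches is the mean of its arrays, and whole guts are of batch 2 only. Red points stand above grey ones in most enzymes, grey and blue overlap in many of them, and the blue points of Stard4, Mylip and Insig1 stand with the red.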

How the data were processed

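The deposited table held 45101 probe sets for 33 Affymetrix arrays. The submitters' processing notes name RMA, without a version. Each deposited value is a score: on each array the sorted values equal normal quantiles (largest deviation 5e-06, range -4.084 to 4.084). This was read from the values, as was an earlier scaling of probe sets within a batch, and no label records either step. The design had assumed log2 values, so no fold change and no filter on dim probe sets was used, and eBayes ran without a trend.

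Gene symbols came from the platform annotation of the probe sets: 34958 had 1 gene symbol, 932 several and 9211 none. After control probe sets were left out, 34945 probe sets were averaged to 18193 genes. For GDNF, treated minus untreated scores of each gut were taken inside a batch, and a gut read in both batches gave the mean of 2 such differences. Limma 3.58.1 (lmFit, eBayes; R 4.3.3) was fitted over all genes to 9 differences, with Benjamini-Hochberg adjustment and a threshold of 0.05. ENCC arrays of batch 2 were compared with whole gut in a fit per treatment, 4 against 8.

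The labels' treatment protocol states that the cells of 1 gut filled both wells, and the title numbers, read as gut numbers, match the wells, so pairing is the main design. In batch 1 the deviations of paired wells correlated at 0.025 to 0.305, and 3 of 8 guts correlated best with their own number. Without the replicate block 21 genes were called higher, where 16.1% of all genes were, and 1 lower, where 10.6% were. Litters are not named in the labels. The fits were tested on simulated data. Alternatives were a fit without the block, each batch alone, other probe set summaries, the hybridisation controls as a covariate, all ENCC RNAs against whole gut, a variance for each group, and leaving out each gut; leaving out whole gut 4 was added after seeing the data. The variance for each group came from array weights, with 1 ratio between the groups shared by all genes. The members and lists were chosen with earlier results of these data known. All 29 measured genes are named, and of further lists at most the 3 largest called differences per direction and role, with Acaca added after its value was seen.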

Additional observations from a re-analysis of the deposited data

Results flagged for a closer look

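In each group of wells, paired differences or whole guts, the lowest and highest value of every gene were set against the others, and a value was singled out where its gap to the nearest other exceeded Dixon's critical share of the range. This occurred in 13 of 116 groups of values, where chance alone gives about 1 in 20. In whole gut all 5 such values belonged to gut 4: Pmvk at -0.86, Nsdhl at -1.16, Insig1 at -0.51, Stard4 at 0.74 and Npc2 at -0.23, each below the other 7 guts. Over all genes, whole gut 4 lay far from the others in 1222 of 18193 (6.72%), against 0.192% to 1.63% for each other whole gut.

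Gut 1 gave the low untreated wells of Hsd17b7 (-2.27) and Scap (-0.64), the low treated well of Tm7sf2 (-0.17) and the high treated well of Abca1 (2.94). The untreated well of gut 2 was high in Nr1h3, at 2.31. Among paired GDNF differences, Msmo1 stood out in gut 5 at 2.90, Hsd17b7 in gut 6 at -2.09 and Npc2 in gut 4 at -1.37. Without gut 5 Msmo1 was still called higher.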

How the results depend on the processing

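The 29 paired GDNF differences were recomputed under 7 alternatives, and 164 of these values kept their direction and their side of the threshold, 31 lost the call, 2 gained one and 6 changed sign. Of the 31, 23 were in batch 2 alone, with 4 guts, where 0 of all 18193 genes were called higher and 0 lower. Without the replicate block 21 were higher, where 16.1% of all genes were, and 1 lower, where 10.6% were. Genes called lower numbered 2 (Npc1 and Scap) with the most reproducible probe set, where 14.4% of all genes were lower. With the hybridisation controls as covariate they numbered 0, where 9.87% were. The values that changed sign, none of them called, were Npc2 (-0.11) and Nr1h3 (0.19) in batch 1, Abca1 (0.35) in batch 2, Npc2 (-0.04) with the most reproducible probe set, and Hsd17b7 (-0.12) and Nr1h3 (0.15) with the covariate. Leaving out 1 gut gave 21 to 23 higher, where 16.4% to 18.5% of all genes were. It gave 1 to 2 lower, where 11.1% to 13.9% were, and Nr1h3 ran from -0.53 to 0.13.

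Against whole gut, all 9 ENCC RNAs gave 7 higher and 7 lower in untreated cells, and a variance for each group gave 2 lower. Leaving out 1 ENCC gut gave 4 to 7 higher untreated, where 21.1% to 24.5% of all genes were. It gave 5 to 7 lower untreated, where 23.4% to 27.7% were, and 1 to 2 lower treated, where 26.8% to 27.6% were. Untreated differences that changed sign were Sc5d (-0.12) with all RNAs, Cyp51 (0.12) with the median of probe sets, and, with the most reproducible probe set, Fdps (-0.04), Fdft1 (0.17), Lss (0.57), Cyp51 (0.12), Msmo1 (-0.19), Srebf2 (-0.94) and Insig2 (-0.07), of which Lss and Srebf2 were then called. Treated ones were Srebf2 (-0.36) and Abca1 (-0.25) with that probe set. Over left-out guts, untreated Idi1 ran from -0.26 to 0.24, Fdps from -0.09 to 0.18, Nsdhl from -0.01 to 0.22 and Srebf2 from -0.14 to 0.26, and treated Npc2 from -0.31 to 0.27 and Mylip from -0.18 to 0.27. The cause of these changes was not tested. The number of arrays and the compressed scores limit the precision.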

Other observations

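Genes that shared a direction with GDNF did not share their order over guts. In untreated wells of guts 1 to 9 Hmgcs1 scored -1.46, -0.37, -0.42, -0.55, -0.32, -0.99, -1.03, -1.13 and -1.20, with guts 2 to 5 high. Stard4 scored -1.88, -1.13, -1.42, -1.14, -1.41, 0.06, -0.45, -0.41 and -0.35, with guts 6 to 9 high. Insig1 and Mylip were, like Hmgcs1, lower in guts 6 to 9 than in guts 2 to 5 untreated, and Pmvk, Tm7sf2 and Ebp were higher there. The treated wells of Hmgcs1 scored 1.01 to 1.53 in guts 2 to 5 and 0.00 to 0.28 in guts 6 to 9, while those of Stard4 scored 0.16 to 0.42 and 0.80 to 1.46. This split of guts was noticed after the values were seen, no label names it, and it was not tested.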
